A study of Mus musculus with 5 samples.

Results

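Mechanosensitive ion channels were read out in mouse cancer-associated fibroblasts (CAFs) as the transcripts of 10 genes, Piezo1, Piezo2, Trpv2, Trpv4, Trpm7, Trpc1, Trpc6, Tmem63a, Tmem63b and Kcnk2. They were picked by gene symbol, and all 10 were found among the 54636 rows of the RNA sequencing count table. The study asked how CAF contractility and the fibronectin matrix act on cancer cells, and RNA was sequenced from 5 CAF cultures, with 1 library per condition. Myosin IIA KO CAFs came from tumors grown in αSMA-CreERT2; R26mT/mG; myosin IIA fl/fl mice, in which the floxed gene Myh9 is recombined by a Cre that the αSMA promoter drives. Cre- control CAFs came from the same floxed strain without Cre, and the labels give 2 µM tamoxifen in culture for both. The other 3 cultures, labelled WT, were mouse CAFs grown out of patient-derived xenografts (PDX), which the study's methods place in Nude mice (Foxn1nu), and were given Fn1 siRNA, control (scramble) siRNA or no siRNA. All were outgrowth cultures immortalized with SV40. Each group is a single culture, so no test between groups was made, there is no replicate check, and each 95% interval covers counting error only.

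These channels are linked to membrane tension, stretch or swelling, some directly and some downstream of receptors. Most let calcium into the cell, where calmodulin, calcineurin and calpains read it. Piezo proteins are direct mechanosensors of vertebrate cells, several TRP channels respond to stretch or osmotic load alone or downstream of receptors, the TMEM63 proteins belong to the osmosensitive OSCA family, and Kcnk2 encodes TREK1, a stretch-activated potassium channel that holds the membrane potential negative. In fibroblasts, calcium entry through Piezo1, Trpv4 and Trpc6 is known from work on stiffness sensing and on the conversion to myofibroblasts.

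The libraries held 22961620 to 26596351 counts, so that 3 counts, the most that a count of 0 allows, came to 0.108 to 0.135 CPM (counts relative to library size, scaled by TMM). The targeted genes were lower in the libraries labelled for them. Myh9, the myosin IIA heavy chain gene, was at 425 CPM in myosin IIA KO CAFs and 2419 CPM in Cre- control CAFs, and Fn1, the fibronectin gene, at 1282 CPM with Fn1 siRNA and 4778 CPM with control siRNA. Of 6 fibroblast markers, 5 to 6 were at 1 CPM or more in each library, with a summed level of 18557 to 36397 CPM. Of 4 leukocyte markers, Ptprc and Cd3e had no count in any library, Cd68 reached 1 CPM in all 5 and Lyz2 in myosin IIA KO CAFs alone, with sums of 1.44 to 3.002 CPM. Of 4 epithelial markers, 0 reached 1 CPM. In bulk RNA, fewer cells of a type and less RNA per cell cannot be told apart.

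Among the 10 genes, Piezo1 was highest per kb in every library, and a few of them made up most of their summed level. Divided by gene length so that genes can be compared, Piezo1 stood at 27.9 CPM per kb in myosin IIA KO, 29.2 in Cre- control, 52.2 with Fn1 siRNA, 54.0 with control siRNA and 40.1 CPM per kb in untreated PDX CAFs. That was 31.9% and 30.8% of the summed level of all 10 genes in myosin IIA KO and Cre- control CAFs, and 46.0%, 46.7% and 44.9% in the Fn1 siRNA, control siRNA and untreated PDX cultures. Tmem63a was next in all 5 libraries at 18.4 to 25.4 CPM per kb, and Tmem63b came after it at 12.0 to 15.1 CPM per kb, level with Trpv2 in Cre- control CAFs, where the intervals of these neighbors overlapped (both at 12.0 CPM per kb). Trpm7 followed at 9.45 to 10.96 CPM per kb. Of the protein-coding genes that reached 1 CPM, 85.1% were lower per kb than Piezo1 in myosin IIA KO CAFs, 85.3% in Cre- control CAFs, 91.6% with Fn1 siRNA, 92.1% with control siRNA and 89.4% in untreated PDX CAFs.

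**Figure D1:**
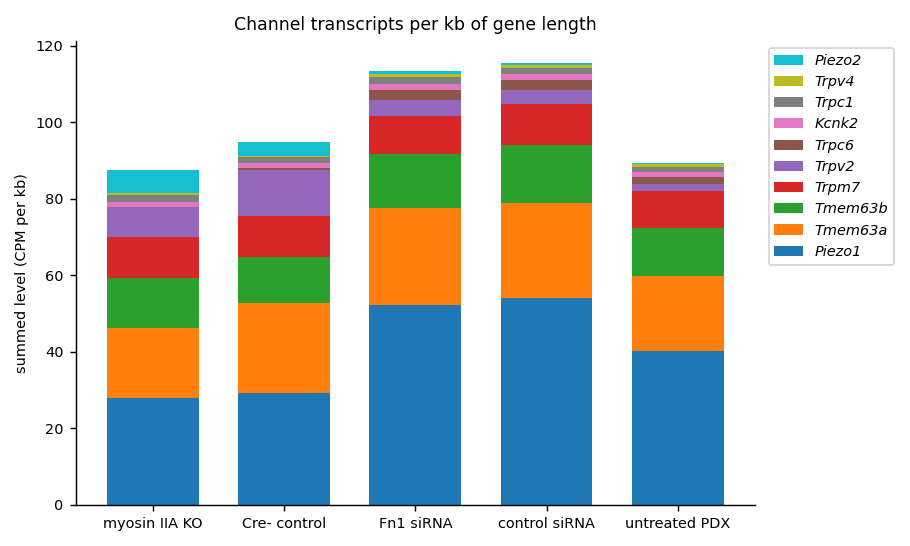
Levels of the 10 channel genes divided by gene length, stacked for each of the 5 libraries (vertical axis, CPM per kb; 1 bar per library). The sums were 87.6 in myosin IIA KO, 94.9 in Cre- control, 113 with Fn1 siRNA, 116 with control siRNA and 89.3 CPM per kb in untreated PDX CAFs, with Piezo1 the thickest block in every bar.

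The bottom of the order differed between the cultures. Trpc6 was last in myosin IIA KO CAFs at 0.0714 CPM per kb, Trpv4 was last in Cre- control CAFs at 0.329 CPM per kb, and Piezo2 was last in the 3 PDX cultures, at 0.696 with Fn1 siRNA, 0.541 with control siRNA and 0.360 CPM per kb in untreated cells. Neighbors whose intervals overlapped were Trpc1 with Kcnk2 and Trpv4 with Piezo2 in both siRNA libraries, and Trpv2, Trpc6, Kcnk2 and Trpc1, each with the next of these, in untreated PDX CAFs.

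Piezo1 was lower and Piezo2 higher in both floxed-strain cultures than in all 3 PDX cultures, while among the PDX cultures both were lowest in untreated cells. Piezo1 (ENSMUSG00000014444, chromosome 8, 122481698 to 122551329, minus strand, mm10) was at 277 CPM in myosin IIA KO, 290.0 in Cre- control, 518 with Fn1 siRNA, 536 with control siRNA and 398 CPM in untreated PDX CAFs, a span of 1.93-fold. Piezo2 (ENSMUSG00000041482, chromosome 18, 63010213 to 63387183, minus strand), the channel of touch and proprioception in sensory neurons, was at 90.0, 53.3, 10.1, 7.89 and 5.25 CPM in the same order of libraries, a span of 17.1-fold. The table gives Piezo2 a length of 14566 bases, while its exons in GENCODE M21 cover 17162, so its level per kb depends on the annotation. Within a library, where scaling plays no part, the Piezo2 to Piezo1 ratio per kb was 0.221 in myosin IIA KO (interval 0.211 to 0.232) and 0.125 in Cre- control CAFs (0.118 to 0.133), against 0.0133 with Fn1 siRNA, 0.0100 with control siRNA and 0.0090 in untreated PDX CAFs. Piezo1 shares 24.6% of its exon bases with Ctu2 on the opposite strand, with strand use in counting not given in the sources used here. Ctu2 itself was at 22.0 CPM in myosin IIA KO, 28.4 in Cre- control, 49.5 with Fn1 siRNA, 44.5 with control siRNA and 40.4 CPM in untreated PDX CAFs, which is also lower in the floxed-strain cultures, and its part in the Piezo1 counts was not tested. Of 4 neuron and Schwann cell markers, 2 were at 1 CPM or more in each floxed-strain culture and 1 in each PDX culture. Their sum was 41.2 CPM in myosin IIA KO and 49.6 CPM in Cre- control CAFs, and 17.3 to 20.5 CPM in the PDX cultures, nearly all of it Tubb3. Sox10 had no count in either floxed-strain library. The part of these markers in the Piezo2 levels was not tested.

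**Figure D2:**
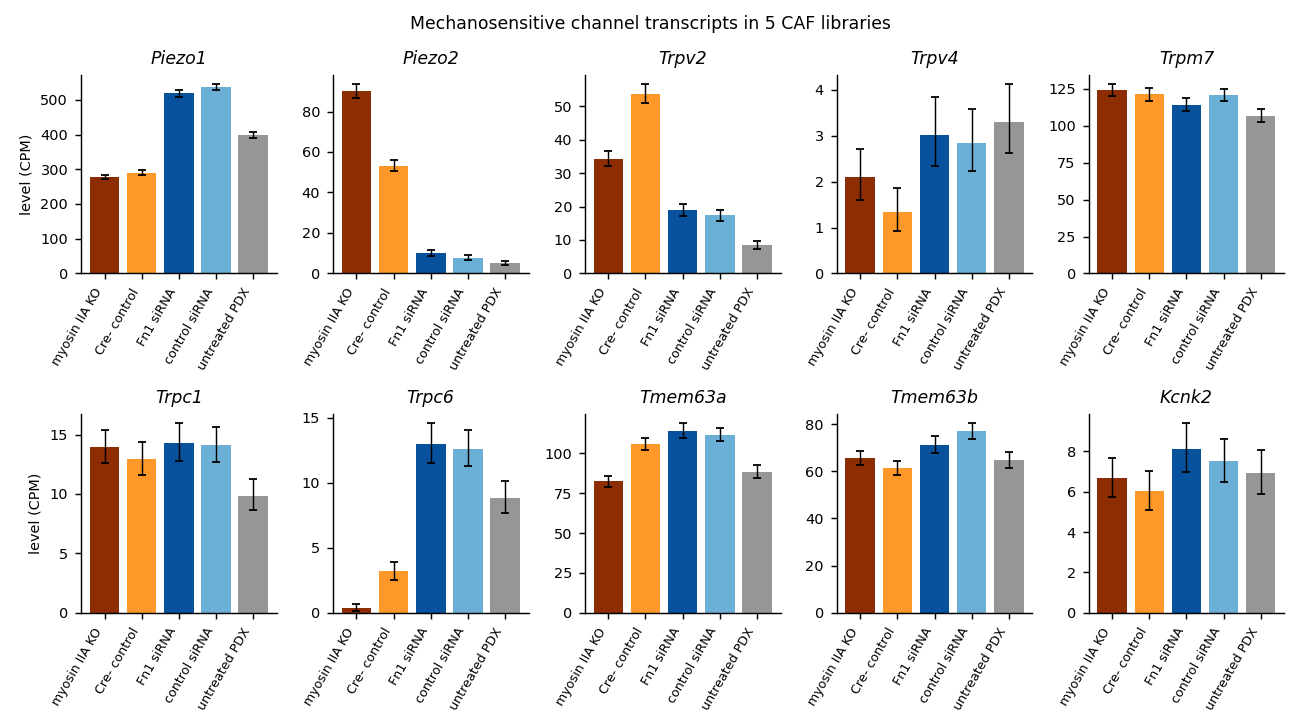
Level of each channel gene (vertical axes, CPM, from 0, with a scale per gene) in the 5 libraries, 1 bar per library with its exact Poisson 95% interval. Piezo2 and Trpv2 stand high in the myosin IIA KO and Cre- control bars, Trpc6 stands high in the 3 PDX bars, and Trpm7 is nearly level at 107 to 124 CPM.

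Among the TRPV channels, Trpv2 (ENSMUSG00000018507, chromosome 11, 62574486 to 62600515, plus strand), a stretch- and swelling-sensitive cation channel, was at 34.2 CPM in myosin IIA KO, 53.7 in Cre- control, 18.9 with Fn1 siRNA, 17.4 with control siRNA and 8.47 CPM in untreated PDX CAFs. Trpv4 (ENSMUSG00000014158, chromosome 5, 114622152 to 114658421, minus strand), an osmosensitive calcium channel, was low throughout, at 2.10, 1.34, 3.02, 2.85 and 3.30 CPM in the same order. Trpv2 was highest and Trpv4 lowest in Cre- control CAFs, and Trpv2 was lowest in untreated PDX CAFs, while the Trpv4 intervals of the 3 PDX cultures overlapped. Their Trpv4 to Trpv2 ratio per kb was 0.0674 in myosin IIA KO (0.0508 to 0.0879) and 0.0274 in Cre- control CAFs (0.0190 to 0.0383), 0.176 with Fn1 siRNA, 0.180 with control siRNA and 0.429 in untreated PDX CAFs. Trpm7 (ENSMUSG00000027365, chromosome 2, 126791565 to 126876230, minus strand), a magnesium and calcium channel joined to a kinase that can phosphorylate the myosin IIA heavy chain, had the narrowest span, 1.16-fold, at 124, 121, 114, 121 and 107 CPM.

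Trpc6 (ENSMUSG00000031997, chromosome 9, 8544142 to 8680741, plus strand), a channel opened by diacylglycerol downstream of receptors, had the widest span of the 10 genes, 35.9-fold. It held 10 counts in myosin IIA KO CAFs, or 0.362 CPM with an interval of 0.173 to 0.665, and 83 counts in Cre- control CAFs, or 3.18 CPM (2.53 to 3.94). It was at 13.0 CPM with Fn1 siRNA, 12.6 with control siRNA and 8.85 CPM in untreated PDX CAFs. Both floxed-strain cultures thus lay below all 3 PDX cultures, and the knockout lay below its own control. Trpc1 (ENSMUSG00000032839, chromosome 9, 95705082 to 95750375, minus strand), a subunit that joins other TRPC proteins, stayed between 9.87 and 14.3 CPM. The Trpc6 to Trpc1 ratio per kb was 0.0412 in myosin IIA KO (0.0196 to 0.0765) and 0.389 in Cre- control CAFs (0.302 to 0.496), against 1.44 with Fn1 siRNA and 1.42 in both of the other PDX cultures. Of the other TRPC genes, Trpc2, Trpc4 and Trpc7 had no count in any library.

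**Figure D3:**
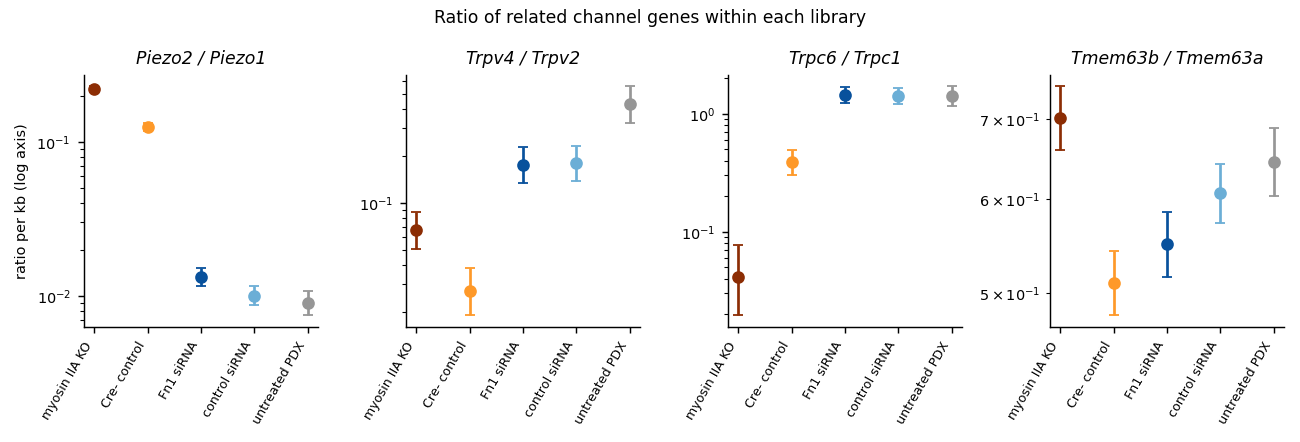
Ratio per kb of paired channel genes within each of the 5 libraries (vertical axes, logarithmic), 1 point per library with its exact binomial 95% interval. Trpc6 to Trpc1 runs as low as 0.0412 in myosin IIA KO and as high as 1.44 with Fn1 siRNA, and Piezo2 to Piezo1 is 0.221 in myosin IIA KO and 0.0090 in untreated PDX CAFs.

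The OSCA relatives and the potassium channel varied little. Tmem63a (ENSMUSG00000026519, chromosome 1, 180942344 to 180975112, plus strand) was at 82.5 CPM in myosin IIA KO, 106 in Cre- control, 114 with Fn1 siRNA, 112 with control siRNA and 88.5 CPM in untreated PDX CAFs. Tmem63b (ENSMUSG00000036026, chromosome 17, 45660171 to 45686905, minus strand) was at 65.7, 61.2, 71.3, 76.9 and 64.7 CPM in the same order. The Tmem63b to Tmem63a ratio per kb was 0.701 in myosin IIA KO (0.659 to 0.746) and 0.510 in Cre- control CAFs (0.479 to 0.542), so these intervals did not overlap. Kcnk2 (ENSMUSG00000037624, chromosome 1, 189207930 to 189402273, minus strand) spanned 6.01 to 8.11 CPM. Genes on the opposite strand share 12.2% of the exon bases of Kcnk2, 7.73% of Tmem63b and 3.50% of Tmem63a, and 0% of the other members but Piezo1.

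Promoters are shown for Trpc6, the channel gene of widest span, and for Tmem63a, which shares a motif with it. RefSeq (build GRCm38.p6) gave 14 promoters for 9 of the channel genes, and these 2 genes were the ones with a CArG box, the motif bound by serum response factor. Each sequence covers 250 bases before to 50 bases after the RefSeq start on the plus strand, 5′ to 3′, with the CArG box in capitals. The motif reads alike on both strands and lies 122 to 113 bases before the Trpc6 RefSeq start and 110 to 101 bases before the Tmem63a RefSeq start. The gene coordinates of the counts start Tmem63a earlier, at 180942344, so by them its CArG box lies inside the gene. The regions are chr9:8543892-8544191 and chr1:180942268-180942567.
Trpc6: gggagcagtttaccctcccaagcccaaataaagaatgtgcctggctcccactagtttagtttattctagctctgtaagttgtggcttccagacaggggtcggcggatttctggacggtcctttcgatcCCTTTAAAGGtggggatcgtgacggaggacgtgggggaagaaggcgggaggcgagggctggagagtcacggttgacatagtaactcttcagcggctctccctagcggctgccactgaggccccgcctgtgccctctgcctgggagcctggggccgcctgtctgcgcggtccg
Tmem63a: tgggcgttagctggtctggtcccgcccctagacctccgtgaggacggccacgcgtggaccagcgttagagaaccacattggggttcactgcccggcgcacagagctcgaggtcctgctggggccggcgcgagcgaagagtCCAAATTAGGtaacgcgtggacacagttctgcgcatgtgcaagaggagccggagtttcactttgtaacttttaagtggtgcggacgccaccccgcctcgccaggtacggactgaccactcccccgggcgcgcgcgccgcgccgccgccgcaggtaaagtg
A CArG box was present in 1.63% of 32851 mouse promoters of this length. The letters GGAATG, the core read by TEAD factors, were searched on both strands and were present in 14.7% of promoters, among them 1 of Kcnk2 and 1 of Trpv2, on the reverse strand in both, and no match overlapped another. The motifs were chosen with the values known, and a match is a description of letters only.

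Myosin IIA KO CAFs differed from Cre- control CAFs by more than 2-fold, the fold threshold of the study, in 1 of the 10 channel genes. Trpc6 had a log2 ratio of -3.07 (-4.25 to -2.18), 8.40-fold lower in myosin IIA KO CAFs, and it was compared only because Cre- control CAFs passed the filter of 1 CPM. Among all 13326 genes compared, 4.99% were over 2-fold in either direction, 1.7% over 2-fold lower and 3.29% over 2-fold higher. Piezo2 was 1.69-fold higher in myosin IIA KO CAFs (log2 ratio 0.76, 0.66 to 0.85) and Trpv4 had a log2 ratio of 0.64, whose interval nearly reached 0 (0.018 to 1.30). On the other side, Trpv2 had a log2 ratio of -0.65 (-0.77 to -0.53) and Tmem63a one of -0.36 (-0.44 to -0.28). Piezo1 was nearly level at -0.065 (-0.11 to -0.019), and by library totals alone its sign turned. Trpm7 at 0.033, Trpc1 at 0.11 and Kcnk2 at 0.15 had intervals that included 0, and Tmem63b was at 0.10. The interval left out 0 for 7 of 10 channel genes, 3 higher and 4 lower, beside 51.5% of all genes compared, 24.9% higher and 26.7% lower, and the median log2 ratio was 0.067 for the channels and -0.0055 for all genes. Markers of several cell types also differed here. All 5 adipocyte markers were over 2-fold higher, with a summed level of 3158 CPM in myosin IIA KO and 845 CPM in Cre- control CAFs. The 3 smooth muscle and pericyte markers were mixed, with Myh11 at 7.38 CPM in myosin IIA KO and 25.6 CPM in Cre- control CAFs, Des over 2-fold higher at 4.05 against 1.72 CPM, and Rgs5 at 2.28 against 2.22 CPM. Of the 4 skeletal muscle markers Acta1 alone had counts, at 32.7 CPM in myosin IIA KO and 85.4 CPM in Cre- control CAFs. Of 6 fibroblast markers, 5 had a negative log2 ratio and 1, Lum, was over 2-fold lower, with a summed level of 28830 CPM in myosin IIA KO and 36397 CPM in Cre- control CAFs. Lyz2 was over 2-fold higher at 39 counts in myosin IIA KO and 18 in Cre- control CAFs, and it was compared only because the knockout passed the filter. Of the 2 neuron and Schwann cell markers compared 0 were over 2-fold, and 0 endothelial markers reached 1 CPM in either library. The part of these markers in the channel values was not tested.

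**Figure D4:**
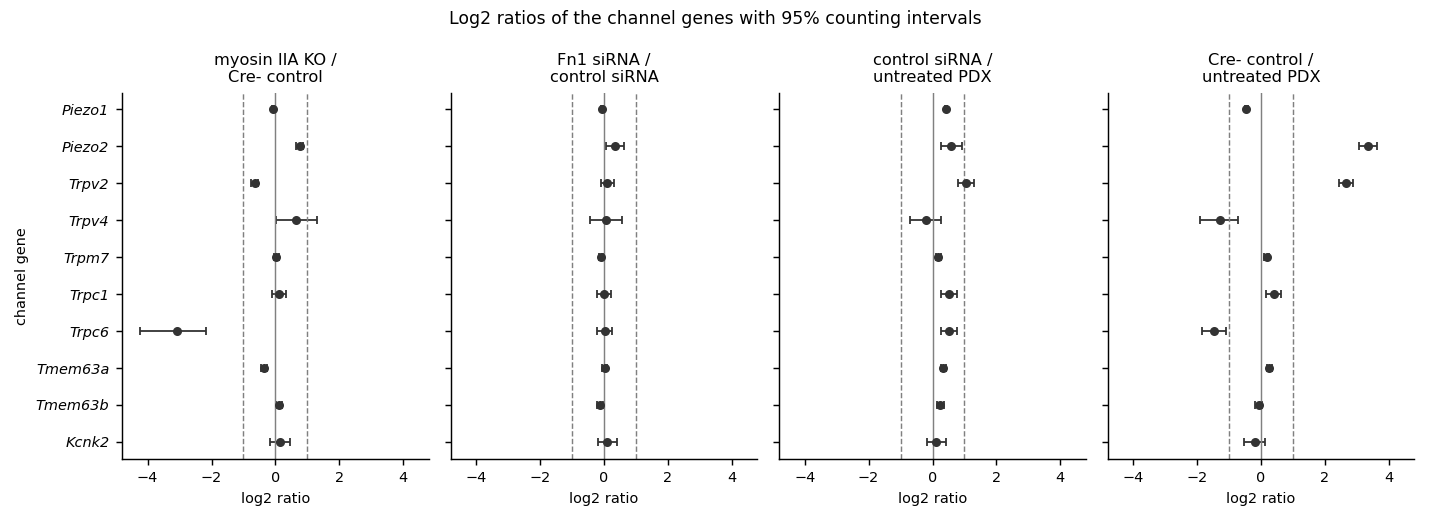
Log2 ratio of each channel gene (horizontal axes) in 4 comparisons, with the exact conditional binomial 95% interval as a bar and dashed lines at 2-fold. Trpc6 lies past the lower line in myosin IIA KO against Cre- control, no gene passes a line with Fn1 siRNA against control siRNA, and Piezo2 at 3.34 and Trpv2 at 2.66 lie far past the upper line in Cre- control against untreated PDX CAFs.

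Fn1 siRNA left the channel transcripts close to control siRNA. Of the 10 genes, 0 were over 2-fold, beside 0.899% of 13009 genes compared, 0.523% higher and 0.377% lower. The value farthest from 0 was that of Piezo2, at 10.1 CPM with Fn1 siRNA and 7.89 CPM with control siRNA, a log2 ratio of 0.35 (0.070 to 0.63). Piezo1 at -0.063, Trpm7 at -0.095 and Tmem63b at -0.12 had intervals just below 0. Trpc6, at 288 counts with Fn1 siRNA and 328 with control siRNA, had a log2 ratio of 0.027 (-0.21 to 0.26). Intervals included 0 for 6 of 10 genes and left it out for 4, beside 27.7% of all genes, and the median was 0.023, against -0.0029 over all genes. Of the cell type markers, Cd68 alone was over 2-fold, lower at 32 counts with Fn1 siRNA and 75 with control siRNA, and its part in the channel values was not tested. Control siRNA CAFs are also the first group of the next comparison, so these comparisons share a library.

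Control siRNA CAFs held more of most channel transcripts than untreated PDX CAFs, a difference that includes the transfection itself. Trpv2, at 17.4 CPM with control siRNA and 8.47 CPM in untreated cells, was the 1 gene of 10 over 2-fold, with a log2 ratio of 1.04 (0.79 to 1.28). Over all 13125 genes, 5.71% were over 2-fold in either direction, 2.98% higher and 2.74% lower. The Trpv2 call was narrow, and by library totals its log2 ratio was 0.96. The log2 ratio was positive for 9 of 10 channel genes, beside 48.3% of all genes. Piezo2 was at 0.58, Trpc1 at 0.52, Trpc6 at 0.51, Piezo1 at 0.43 (0.39 to 0.47), Tmem63a at 0.34, Tmem63b at 0.25, Trpm7 at 0.18 and Kcnk2 at 0.12, while Trpv4 was at -0.21 (-0.69 to 0.26). Intervals left out 0 for 8 of 10, all 8 on the positive side, beside 59.7% of all genes in either direction, 29.3% higher and 30.5% lower. The channel median was 0.38 and that of all genes -0.014. The 4 skeletal muscle markers summed to 34.9 CPM with control siRNA and 6.48 CPM in untreated PDX CAFs, with Myog and Ckm without a count in both. Of 2 smooth muscle and pericyte markers compared 1 was over 2-fold higher, the summed level of all 3 being 3.39 CPM with control siRNA and 1.52 CPM in untreated PDX CAFs. Both were compared only because the control siRNA library passed the filter, as 0 of 3 reached 1 CPM in untreated PDX CAFs. Of 2 adipocyte markers compared 1 was over 2-fold lower, with sums of 326 CPM with control siRNA and 514 CPM in untreated PDX CAFs. The part of these markers in the channel values was not tested. Fn1 siRNA CAFs set against untreated PDX CAFs likewise had 1 channel gene over 2-fold, Trpv2 at 1.16 (0.91 to 1.41), beside 6.32% of 13114 genes, 3.29% higher and 3.03% lower.

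More channel genes passed 2-fold in Cre- control against untreated PDX CAFs than in the 3 comparisons above. Piezo2, at 53.3 CPM in Cre- control and 5.25 CPM in untreated PDX CAFs, was 10.1-fold higher (log2 ratio 3.34, 3.08 to 3.62), and Trpv2 was 6.33-fold higher (2.66, 2.45 to 2.89). Trpc6 was 2.78-fold lower (-1.47, -1.86 to -1.11) and Trpv4, at 35 counts in Cre- control and 78 in untreated PDX CAFs, was 2.44-fold lower (-1.29, -1.92 to -0.71). These are 4 of 10 channel genes over 2-fold, beside 19.3% of 13537 genes, 10.9% higher and 8.43% lower. The other 6 lay within 2-fold, from -0.46 for Piezo1 to 0.39 for Trpc1. The interval left out 0 for 8 of 10, beside 73.7% of all genes, and the median was 0.050 for the channels and -0.030 for all genes. Myosin IIA KO CAFs set against untreated PDX CAFs had 3 channel genes over 2-fold, Piezo2 at 4.09 and Trpv2 at 2.01 on the higher side and Trpc6 at -4.54 on the lower, beside 21.7% of 13646 genes, 12.8% higher and 8.89% lower. Trpc6, at 0.362 CPM in myosin IIA KO CAFs, was compared only because untreated PDX CAFs passed the filter. These comparisons share the untreated library, and the Cre- control library also serves the knockout comparison. The cultures differ in host strain, tumor and tamoxifen at once, which cannot be told apart with 1 library each. Markers of most cell types also differed here. Of 5 adipocyte markers 4 were over 2-fold higher, at 845 CPM summed in Cre- control and 514 CPM in untreated PDX CAFs, where Adipoq had no count. All 3 smooth muscle and pericyte markers were over 2-fold higher, at 29.5 CPM summed in Cre- control and 1.52 CPM in untreated PDX CAFs, as were 3 of 6 fibroblast markers, at 36397 against 18557 CPM, and both neuron and Schwann cell markers compared, at 49.6 against 20.5 CPM. In untreated PDX CAFs, 0 of 3 smooth muscle and pericyte markers and 2 of 5 adipocyte markers reached 1 CPM. There, 5 of 6 fibroblast markers and 1 of 4 neuron and Schwann cell markers did so. The rest of those compared entered only because Cre- control CAFs passed the filter. Acta1, the 1 skeletal muscle marker compared, had a log2 ratio of 3.73, at 85.4 CPM in Cre- control and 6.44 CPM in untreated PDX CAFs. Kdr, the 1 endothelial marker compared, was 8.02-fold lower, at 15 counts in Cre- control and 112 in untreated PDX CAFs, and it was compared only because untreated PDX CAFs passed the filter. The part of these markers in the channel values was not tested.

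Of the other TRP channels and the other mechanosensitive and volume-gated channels, 1 gene passed 2-fold in the knockout and 0 in the knockdown. Beside them stand 4.99% and 0.899% of all genes, and in lists of this size such counts lie near those shares. Of 23 other TRP channels, 4 passed the filter in both the knockout and the knockdown comparison, and 0 were over 2-fold. Pkd2 and Pkd1, the polycystin genes, were the highest of them per kb in untreated PDX CAFs, at 30.0 and 13.6 CPM per kb. Of 22 other mechanosensitive and volume-gated channels, 12 were compared in each, 0 were over 2-fold in the knockdown and 1 in the knockout, Lrrc8d, a subunit of the volume-regulated anion channel, at 7.23 CPM in myosin IIA KO and 2.41 CPM in Cre- control CAFs (log2 ratio 1.58, 1.17 to 2.02). Tmem120a was the highest of that list per kb in untreated PDX CAFs and had a log2 ratio of 0.91 (0.82 to 1.00) in the knockout, from 112 CPM in myosin IIA KO and 59.4 CPM in Cre- control CAFs. Gja1, the connexin gene next in that order, was at 12.8 CPM in myosin IIA KO, 18.2 in Cre- control, 121 with Fn1 siRNA, 116 with control siRNA and 149 CPM in untreated PDX CAFs. Piezo1 was not the highest of all channels listed. In myosin IIA KO CAFs Tmem120a stood at 64.6, Pkd2 at 31.4 and Piezo1 at 27.9 CPM per kb. In Cre- control CAFs Tmem120a was at 34.3 and Piezo1 at 29.2 CPM per kb. In the PDX cultures both Tmem120a and Pkd2 lay below Piezo1 per kb.

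Among channel partners and the calcium machinery, 0 genes passed 2-fold in the knockout and 1 in the knockdown. Over all genes the shares were 4.99% and 0.899%, and a difference of these lists from them was not tested. Of 10 partners of Piezo and TRP channels, 8 were compared and 0 were over 2-fold in either comparison, with Cav1, the caveolin gene, at a log2 ratio of 0.73 and Atp2a2, the SERCA calcium pump, at -0.32 in the knockout. All 17 calcium entry and store genes were compared, with 0 over 2-fold in the knockout and 1 in the knockdown. That was Cacna1h, a T-type calcium channel, at 39 counts or 1.76 CPM with Fn1 siRNA and 14 counts or 0.539 CPM with control siRNA (log2 ratio 1.66, 0.78 to 2.69), compared only because the Fn1 siRNA library passed the filter. Of 19 calcium decoders, 18 were compared and 0 were over 2-fold in either. Calm2 and Calm3, the calmodulin genes highest per kb, had log2 ratios of -0.041 and -0.14 in the knockout.

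**Figure D5:**
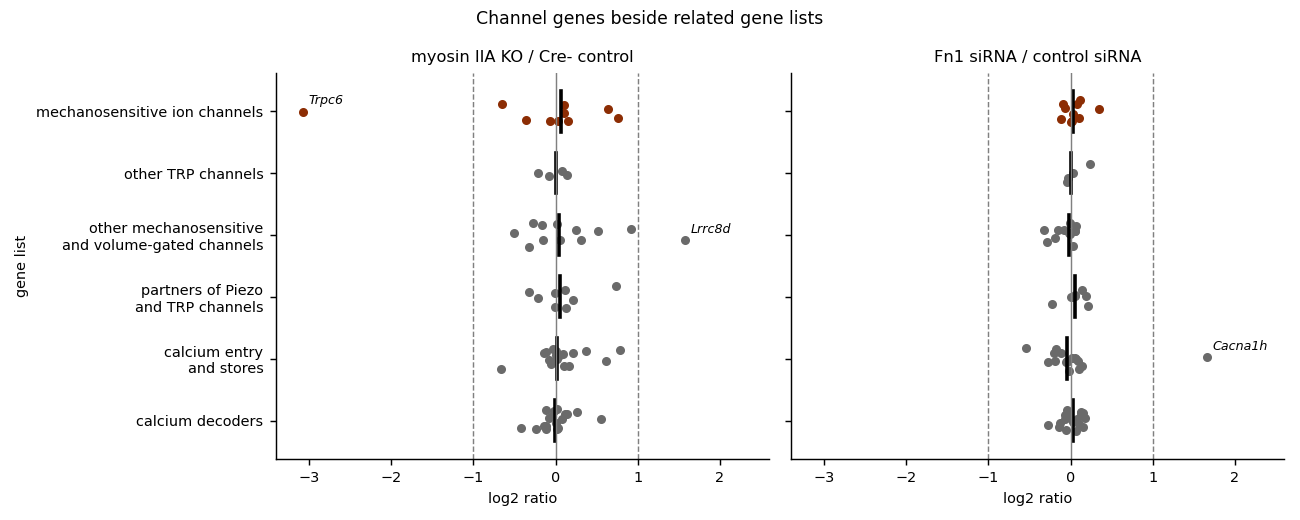
Log2 ratios (horizontal axes) of the compared members of 6 gene lists, in myosin IIA KO against Cre- control (left) and Fn1 siRNA against control siRNA (right), 1 point per gene with a black bar at the list's median and dashed lines at 2-fold. Trpc6 and Lrrc8d pass a line on the left and Cacna1h on the right.

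The genes whose levels ran most like a channel's over the 5 libraries were found by the root mean square distance of centered log2 CPM among 9839 protein-coding genes that reached 10 CPM in any library. For Piezo1 they were Champ1, Sgms2 and Nup62, at distances of 0.032, 0.035 and 0.036. For Trpc6 they were Lrrc15, Creb5 and Mcf2l, at the much larger distances of 0.47, 0.53 and 0.55. Lrrc15, a CAF surface protein gene, was at 1.23 CPM in myosin IIA KO, 13.2 in Cre- control, 39.5 with Fn1 siRNA, 34.4 with control siRNA and 13.9 CPM in untreated PDX CAFs. For Piezo2, added after its values were seen, they were Mgp, Dhrs3 and Slc7a2, at 0.12 to 0.13. With 5 libraries these distances are a description only.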

How the data were processed

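RNA from 5 mouse CAF cultures was sequenced, 1 library per condition. The table the authors deposited holds raw counts for 54636 rows. Its column ending in FnA was taken as the 1 sample labelled Fn1 siRNA. The column ending in WT is that of the Cre- control culture, not of a PDX culture. The submitters' processing notes name mm10, with aligner, counter, annotation and strand use not given in the sources used here. Of the identifiers, 54409 were found in GENCODE M21, 98.3% at the same coordinates. The 104 rows without a gene name took 0.0422% to 0.0551% of counts and were kept in library totals.

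The deposited counts were scaled with TMM (edgeR 4.0.16, R 4.3.3), over all 5 libraries for CPM and within each pair for ratios. For ratios 0.5 was added per count, weighted by library size, and a gene was compared if either library of the pair reached 1 CPM. The call was a ratio over 2-fold, the study's fold threshold without its adjusted p-value. Intervals of 95% are exact Poisson for levels and exact binomial for ratios, and cover counting error only. Those of ratios between libraries were run on simulated Poisson counts. These follow the model that the intervals assume, so the run cannot speak to variation between cultures. Python 3.11.15, numpy 2.4.6, pandas 2.3.3, scipy 1.17.1 and matplotlib 3.10.9 were used. DESeq2 1.42.0 gave alternative size factors.

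Members and lists were chosen with earlier results of these data known. Named genes were the 10 channels, Myh9 and Fn1, list members over 2-fold in the knockout or knockdown (at most 6 per list), the 2 highest per kb of each list in untreated PDX CAFs, and the 3 genes most like Piezo1 and like the channel of widest range. Tmem120a, Cav1 and Gja1 belong to the highest. Markers named singly were chosen after their values were seen. Other alternatives were upper-quartile scaling, library totals, no filter, 10 CPM as the filter, 5 added counts, intervals wholly beyond 2-fold and untreated PDX CAFs as the control.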

Additional observations from a re-analysis of the deposited data

How the results depend on the processing

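Under other scalings (DESeq2 size factors, library totals, upper-quartile) and with 5 counts added, 157 of 160 channel log2 ratios kept their sign and 4 left their counting interval, with a largest shift of 0.45. The exceptions in sign were all by library totals, Piezo1 at 0.0090 in the knockout, and Trpc1 at -0.024 and Tmem63a at -0.0082 in the knockdown. With untreated PDX CAFs as the control, 13 of 20 kept their sign and 16 left the interval.

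In the knockout, channel calls were 0 lower and 0 in all at 10 CPM, where Trpc6 is no longer compared, and 2 higher and 3 in all against untreated PDX CAFs. In the knockdown they were 1 higher and 1 in all against untreated PDX CAFs, where the median was 0.37. Channel calls for control siRNA against untreated PDX CAFs were 0 higher and 0 in all by library totals and by whole intervals. For Cre- control against untreated PDX CAFs they were 0 lower and 2 in all at 10 CPM, with a median of 0.26, and 1 lower by whole intervals.

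Counts over all genes depended on the filter. In the knockout, 439 were higher and 226 lower, against 3775 and 2615 without a filter, 161 and 73 at 10 CPM, 223 and 83 by whole intervals, and 1744 and 1213 against untreated PDX CAFs. In the knockdown, 68 were higher and 49 lower, against 45 and 20 with 5 counts added, 2451 and 2776 without a filter, 8 and 5 at 10 CPM, 10 and 5 by whole intervals, and 431 and 398 against untreated PDX CAFs. Control siRNA against untreated PDX CAFs gave 391 and 359, against 3259 and 3002 without a filter, 145 and 114 at 10 CPM, and 172 and 111 by whole intervals. Cre- control against untreated PDX CAFs gave 1473 and 1141, against 5143 and 3817 without a filter, 658 and 555 at 10 CPM, and 971 higher by whole intervals. No paired analysis was possible because each condition has 1 library, and for the same reason no replicate could be left out. Depth limits values that rest on few counts, such as Trpc6 at 10 counts in myosin IIA KO CAFs and Trpv4 at 35 to 78 counts over the 5 libraries.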
